A study of Mus musculus with 18 samples.

Results

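The lysosome genes described here are the rows of the deposited count table that carry the KEGG lysosome pathway (mmu04142) and that had at least 10 counts in 3 or more of the 18 libraries. Of 135 rows with this annotation among the 57180 genes of the table, 115 met the rule, and all 115 were among the 14263 genes tested. RNA was sequenced from L929, a wild-type line of mouse fibroblasts, in 6 groups with 3 cultures each. Mock cells received DMSO. AOA cells received aminooxyacetic acid, an inhibitor of aminotransferases, at 0.5 mM, and AOA+Asp cells also received 20 mM aspartate. In the other 3 groups (HT-DNA, HT-DNA+AOA and HT-DNA+AOA+Asp) herring testis DNA was delivered at 0.5 µg/ml with Lipofectamine 2000 for 6 h. The inhibitor, where it was given in these groups, was present from 1 h earlier. The total time with the inhibitor in AOA and AOA+Asp cells is not given here. Whether exposure was equal with and without HT-DNA is therefore not known here. No group received aspartate alone, the sources used here do not say whether Mock cells received the transfection reagent, and all cells come from 1 line.

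Lysosomes are acidic compartments in which proteins, glycans, lipids and nucleic acids that arrive by endocytosis or autophagy are degraded. Most of their soluble hydrolases are tagged with mannose 6-phosphate in the Golgi and carried by receptors and clathrin adaptors, the vacuolar proton pump (V-ATPase) acidifies the lumen, and transporters return the breakdown products, amino acids included, to the cytosol. Many lysosome genes share a promoter element bound by TFEB, TFE3 and MITF, basic helix-loop-helix factors that are held in the cytosol by mTORC1 when amino acids are plentiful. DNA that enters lysosomes is cut by the acid nuclease DNase II, and the cytosolic DNA sensor cGAS acts outside this compartment.

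The promoter element was looked up because many genes of the pathway are known to share it. RefSeq promoter windows (250 bases before to 50 after each start site, GRCm38.p6) matched 90 of the 115 genes, by Ensembl gene identifier or, where none was linked, by symbol. The letters TCACGTGA, which read the same on both strands, stood in the windows of 10 of the 90 (11.1%), compared with 304 of all 27025 genes with a window (1.12%). The 90 had passed the rule on counts, whereas all genes with a window were taken whatever their counts, and the share among expressed genes was not counted. The shorter core CACGTG, which every TCACGTGA contains, was found in 23 of the 90 (25.6%) and in 8.09% of all genes, and the element extended by a further G before and C after it in 2 of the 90 (2.22%), Cln3 and Igf2r, and in 0.37% of all genes. One match for each of the 10 genes is printed 5′ to 3′ on the gene's strand, with TCACGTGA in capitals. Ctsa, Gla and Igf2r held a second match. A match describes the letters in these windows and is not a measured binding site.
Atp6v0d1 (chr8:105566050-105566079, minus strand): ccctactgcggTCACGTGAgacgcggtgcg
Cd164 (chr10:41519401-41519430, plus strand): cgccgggctgcTCACGTGAccggcgcgcgc
Cln3 (chr7:126583340-126583369, minus strand): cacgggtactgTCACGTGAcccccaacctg
Ctsa (chr2:164833749-164833778, plus strand): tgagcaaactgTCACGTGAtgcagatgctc
Ctsd (chr7:142387908-142387937, minus strand): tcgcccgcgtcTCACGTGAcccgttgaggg
Gla (chrX:134601182-134601211, minus strand): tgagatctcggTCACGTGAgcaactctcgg
Gnptg (chr17:25240120-25240149, minus strand): ccggctgtcacTCACGTGAccgtgagaccc
Igf2r (chr17:12769696-12769725, minus strand): gccgactcaggTCACGTGAcgctccgggga
Mcoln1 (chr8:3500462-3500491, plus strand): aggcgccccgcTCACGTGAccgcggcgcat
Sumf1 (chr6:108185577-108185606, minus strand): agcaccacaggTCACGTGAtctccatgggt

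Libraries held 17901605 to 24057343 counts, of which the lysosome genes took 1.18% to 1.28%, the share being nearly the same in all 18 libraries. The replicates of HT-DNA+AOA stood apart from those of the other groups: chi-square over degrees of freedom for a pair of libraries (1 under counting error alone) was 67.0 for its replicates 1 and 3 and 26.0 and 18.2 for its other pairs, compared with 2.78 to 13.3 in the other groups. Counts that rest on that group are therefore also given without each of its libraries. Of 14 fibroblast markers 11 were expressed, Vim and S100a4 among them, whereas Thy1, Dcn and Lum were at 4 counts or fewer in every library. Of 10 macrophage markers, whose summed level was 112 to 157 CPM (counts per 1000000 counts of the library, TMM-scaled), nearly all came from Cd68, itself a lysosome gene, and Ptprc, Adgre1 and Fcer1g had no count in any library. Markers of epithelial, endothelial and lymphoid cells summed to at most 1.31 CPM. Cultures are bulk samples, in which less RNA per cell and fewer cells with that RNA cannot be told apart.

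AOA moved lysosome genes in both directions, and few differed between AOA+Asp and Mock. The 3 comparisons among these groups share libraries, so their values are given side by side, and the same holds for those among the HT-DNA groups. Between AOA and Mock, 30 of the 115 genes were higher and 25 lower (47.8%), against 45.7% of all genes tested (22.4% higher and 23.3% lower), with a median log2 fold change of 0.033 over the 115 and 0.015 over all genes. Between AOA+Asp and AOA, 21 were higher and 39 lower (52.2%, against 46.3% of all genes, 23.5% higher and 22.8% lower), with medians of -0.10 and -0.0091. Between AOA+Asp and Mock only 7 genes were called, all of them lower (6.09%, against 6.47% of all genes, 2.52% higher and 3.95% lower). Changes were small. The quartiles of the lysosome genes were -0.21 and 0.21 with AOA, where those of all genes were -0.33 and 0.31, and 1 of the 115 genes, Ncoa7, was called with a change of 1 log2 unit or more in size, compared with 7.48% of all genes. Summed over the 115 genes, the level was 11920, 12070 and 12090 CPM in the Mock libraries. It was 12860, 13090 and 13150 CPM with AOA and 11490, 11940 and 12050 CPM with AOA+Asp, so that the AOA libraries lay above both other groups on the TMM scale. As unscaled shares of the counts, the sums were 1.284%, 1.26% and 1.273% in Mock and 1.246%, 1.273% and 1.258% with AOA, which overlap. With AOA+Asp they were 1.176%, 1.223% and 1.237%, below those with AOA. With library totals in place of TMM, the split between AOA and Mock turned to 11 higher and 38 lower, the median of all genes shifted to -0.12, and that between AOA+Asp and AOA became 26 higher and 22 lower. The directions below are therefore relative to the TMM scale, in which the average gene is taken as unchanged.

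**Figure D1:**
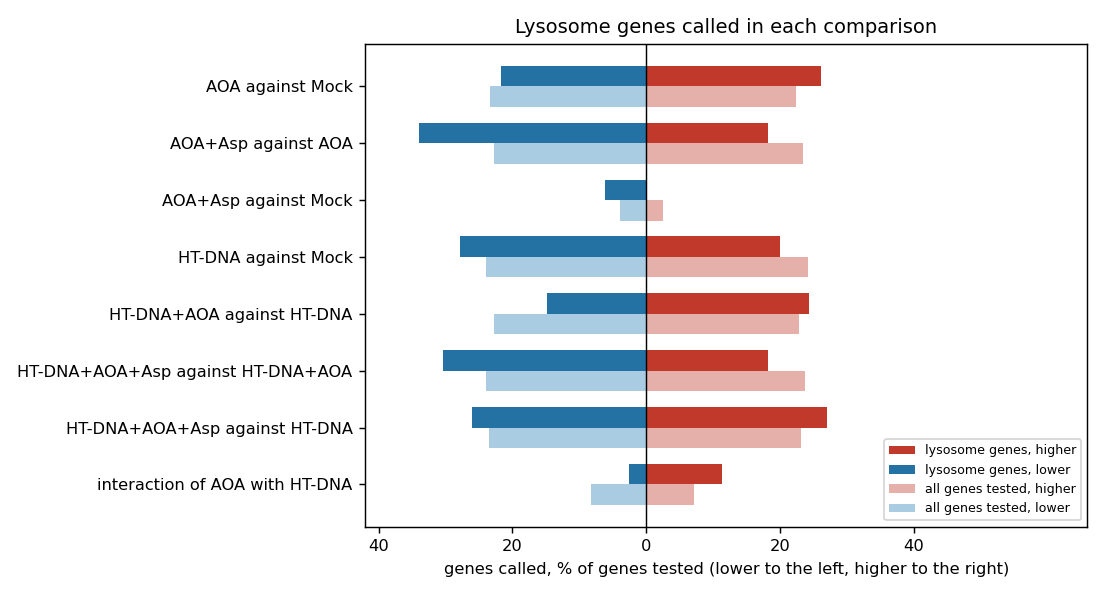
Share of genes called (adjusted p under 0.05) in each comparison, in percent of the genes tested, for the 115 lysosome genes (dark bars) and all 14263 genes (light bars), with genes that were lower drawn to the left of 0 and higher to the right. Falls outnumber rises among the lysosome genes in both comparisons that add aspartate to AOA, 39 to 21 and 35 to 21 (22 to 26 and 21 to 27 with library totals), while the 2 directions are nearly equal over all genes.

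Called proteases were higher with AOA and lower when aspartate was added. Of the 11 proteases, 5 were higher and none lower between AOA and Mock (45.5% and 0%, against 22.4% and 23.3% of all genes). Between AOA+Asp and AOA none was higher and 7 were lower (0% and 63.6%, against 23.5% and 22.8%). With library totals the counts were 2 higher and none lower, and 1 higher and 3 lower. The role groups were chosen with earlier results of these data known, so shares by role, here and below, are descriptions. Ctsb (ENSMUSG00000021939), which encodes the cysteine protease cathepsin B, was measured at 679, 659 and 679 CPM in Mock, 817, 828 and 817 CPM with AOA and 656, 693 and 719.5 CPM with AOA+Asp. The AOA libraries lay above all others, with a rise over Mock (log2 fold change 0.29, standard error 0.0546, adjusted p = 0.000296) and a fall with aspartate (log2 fold change -0.25, standard error 0.0546, adjusted p = 0.00104). Ctsl (ENSMUSG00000021477), which encodes cathepsin L, had 359, 353 and 391 CPM in Mock and 434, 439 and 474 CPM with AOA. It rose as well (log2 fold change 0.29, standard error 0.0568, adjusted p = 0.000431), and the value for added aspartate was -0.15, a call that ended with library totals and without AOA replicate 3 (-0.111, adjusted p = 0.153). The carboxypeptidase Ctsz rose by 0.25 with AOA, not called with library totals, and fell by 0.35 with aspartate. The aminopeptidase Ctsh had 0.30 with AOA and -0.50 with aspartate, and Ctsa, the protective protein of the sialidase complex, had 0.16 and -0.19. The calls with AOA ended with library totals and without any 1 of 4 libraries for Ctsh (AOA replicates 2 and 3, Mock replicates 1 and 2, 0.225 to 0.316) and of all 6 for Ctsa (0.143 to 0.173), that of Ctsh also ended after a correction for GC content and transcript length, and that of Ctsa with aspartate ended with library totals, with the correction (-0.0605) and without AOA replicate 2 (-0.172) or AOA+Asp replicate 1 (-0.133). Values for the aspartic protease cathepsin D, Ctsd, were 0.034 (adjusted p = 0.778) with AOA and -0.17 (adjusted p = 0.105) with aspartate added, and those for the tripeptidyl peptidase Tpp1 were -0.057 (adjusted p = 0.586) and 0.14 (adjusted p = 0.164).

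Among the 20 glycosidases, 4 were higher and 6 lower with AOA (20% and 30%, near the 22.4% and 23.3% of all genes, and 1 and 9 with library totals). Gla (ENSMUSG00000031266), the alpha-galactosidase that is deficient in Fabry disease, was at 27, 26.4 and 32.8 CPM in Mock, 16, 15.6 and 17.9 CPM with AOA and 25.1, 26.2 and 29.7 CPM with AOA+Asp. Its AOA libraries were the lowest of the 9, and Gla fell with AOA (log2 fold change -0.80, standard error 0.0963, adjusted p = 2.14e-06) and rose with aspartate (log2 fold change 0.71, standard error 0.0966, adjusted p = 9.97e-06). Neu1 (ENSMUSG00000007038), the sialidase of the lysosome, was at 33.3, 35.6 and 36.4 CPM in Mock, 19.6, 20.3 and 22.4 CPM with AOA and 26.7, 26.9 and 30.3 CPM with AOA+Asp. It fell by 0.76 on the log2 scale (adjusted p = 5.75e-06) and rose by 0.43 with aspartate, the AOA+Asp libraries lying below those of Mock with a value of -0.33 (adjusted p = 0.0509). Hexa (ENSMUSG00000025232), the alpha subunit of hexosaminidase that is lost in Tay-Sachs disease, went the other way, with 99.5, 93.5 and 105 CPM in Mock, 128, 134 and 135 CPM with AOA and 92, 101 and 99.3 CPM with AOA+Asp. Hexa rose with AOA (log2 fold change 0.42, standard error 0.0896, adjusted p = 0.000915) and fell with aspartate (log2 fold change -0.44, standard error 0.0896, adjusted p = 0.000595). Naglu, which removes N-acetylglucosamine from heparan sulfate, had 0.36 with AOA, a call that ended with library totals and without AOA replicate 2 (0.309), Mock replicate 1 (0.323) or Mock replicate 2 (0.316), and fell by 0.58 with aspartate. The iduronidase Idua rose by 0.48 and fell by 0.53, although its rise with AOA was not called with library totals or without AOA replicate 1 (0.415, adjusted p = 0.0518). The acid glucosidase Gaa had 0.19 with AOA and -0.34 with aspartate. The Gaa call with AOA ended with library totals and without any 1 of Mock replicates 1 and 2 and AOA replicates 2 and 3 (0.166 to 0.187). Of the 8 genes of sulfatases and their activation, 1 was higher with AOA (Sumf1, which activates sulfatases, 0.21, not called with library totals or without Mock replicate 1, 0.191) and 4 were lower with aspartate added, among them Sgsh (-0.43) and Arsa (-0.41). The shares were 12.5% higher with AOA and 50% lower with aspartate, against 22.4% and 22.8% of all genes.

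The largest fall of a hydrolase with AOA was in lipid breakdown. Lipa (ENSMUSG00000024781) encodes the acid lipase that releases cholesterol and fatty acids from the lipids of endocytosed lipoproteins. Its level was 96.4, 96.1 and 92.9 CPM in Mock, 50.6, 54.1 and 48.4 CPM with AOA and 103, 97.2 and 103 CPM with AOA+Asp. AOA libraries were separated from both other groups, and Lipa fell with AOA (log2 fold change -0.90, standard error 0.0625, adjusted p = 2.93e-09) and rose with aspartate (log2 fold change 0.99, standard error 0.0626, adjusted p = 9.91e-10), reaching 0.089 (adjusted p = 0.437) relative to Mock. The other 8 genes of this class changed less: Ppt1, which removes palmitate from proteins, rose by 0.24 with AOA and fell by 0.24 with aspartate, both calls ending with library totals. The phospholipase Pla2g15 had -0.37 and 0.31, the first call ending without AOA replicate 1 (-0.263) or Mock replicate 3 (-0.317) and the second with DESeq2 (0.306, adjusted p = 0.0501) and without any 1 of AOA replicates 1 and 3 and AOA+Asp replicates 2 and 3 (0.202 to 0.345). Npc2, which carries cholesterol within the lumen, and Psap, the precursor of the saposins that present sphingolipids to their hydrolases, had 0.30 and 0.20 with AOA and -0.30 and -0.23 with aspartate. Apart from that of Npc2 with aspartate, these calls ended with library totals, and the calls with AOA also ended without Mock replicate 2 (0.27 for Npc2, adjusted p = 0.0512, and 0.192 for Psap, adjusted p = 0.0642), without AOA replicate 3 for Npc2 (0.258, adjusted p = 0.054) and without AOA replicate 2 for Psap (0.179, adjusted p = 0.0759). That of Psap with aspartate also ended without AOA+Asp replicate 1 (-0.17, adjusted p = 0.0645).

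Of the 13 genes of membrane glycoproteins and membrane-associated proteins, 5 were higher and 2 lower with AOA (38.5% and 15.4%, against 22.4% and 23.3% of all genes). The 13 include Entpd4 and Entpd4b, which have no 31-base word of their own and are counted as 2 genes. With aspartate added 1 was higher and 6 lower (7.69% and 46.2%, against 23.5% and 22.8%). With library totals the counts were 3 and 4, and 1 and 4. Lamp1 (ENSMUSG00000031447), one of the most abundant proteins of the lysosomal membrane, had 498, 481 and 493 CPM in Mock, 597, 608 and 613 CPM with AOA and 472, 501 and 502 CPM with AOA+Asp. The AOA libraries were the highest, with a rise (log2 fold change 0.30, standard error 0.0554, adjusted p = 0.000202) and a fall of the same size with aspartate (log2 fold change -0.30, standard error 0.0554, adjusted p = 0.000227). Cd164 (ENSMUSG00000019818), a sialomucin, was at 311, 294 and 308 CPM in Mock and 425, 402 and 419 CPM with AOA (log2 fold change 0.45, standard error 0.0777, adjusted p = 0.000122), and it fell by 0.36 with aspartate. Lamp2, whose splice forms act in chaperone-mediated autophagy and in the fusion of autophagosomes with lysosomes, had the opposite signs, -0.22 with AOA and 0.30 with aspartate, but neither call held after the GC and length correction, which took the second to -0.00693. The tetraspanin Cd63 had 0.32 and -0.30. Its calls ended with library totals and without any 1 of several libraries (0.289 to 0.315 for AOA without Mock replicate 1 or 2 or AOA replicate 2 or 3, and -0.277 to -0.267 for aspartate without AOA replicate 2 or 3 or AOA+Asp replicate 1 or 3), and other genes hold 15.9% of its 31-base words. Scarb2, a membrane receptor of lysosomes, had -0.093 (adjusted p = 0.324) with AOA and -0.028 (adjusted p = 0.784) with aspartate.

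Among the 11 transporters and channels, 2 were higher and 2 lower with AOA (18.2% each, near the 22.4% and 23.3% of all genes), and 3 were higher and 3 lower with aspartate added (27.3% each, against 23.5% and 22.8%). With library totals the counts were 2 and 4, and 4 and 3. Hgsnat (ENSMUSG00000037260), which acetylates heparan sulfate across the lysosomal membrane, was at 18.6, 18.4 and 20.9 CPM in Mock, 29.9, 30.4 and 31.8 CPM with AOA and 17.6, 21.1 and 17.1 CPM with AOA+Asp. AOA libraries lay above all others, and Hgsnat showed the largest called rise with AOA in the pathway (log2 fold change 0.67, standard error 0.0907, adjusted p = 9.48e-06) and the largest fall with aspartate by the naming rule (log2 fold change -0.72, standard error 0.0911, adjusted p = 4.48e-06). Ctns (ENSMUSG00000005949), the transporter that exports cystine from lysosomes, moved the other way, with 17.9, 15.9 and 16.8 CPM in Mock, 9.99, 11.7 and 12 CPM with AOA and 17, 15.3 and 19.4 CPM with AOA+Asp. It fell with AOA (log2 fold change -0.59, standard error 0.103, adjusted p = 0.000145) and rose with aspartate (log2 fold change 0.62, standard error 0.103, adjusted p = 9.2e-05). Cln3 (ENSMUSG00000030720), a membrane protein mutated in Batten disease, had 13.2, 13.2 and 14.8 CPM in Mock and 7.35, 8.46 and 8.37 CPM with AOA and fell as well (log2 fold change -0.77, standard error 0.101, adjusted p = 6.66e-06), rising by 0.58 with aspartate. Slc11a2, the iron transporter DMT1, rose by 0.30 with AOA and fell by 0.53 with aspartate. The cholesterol exporter Npc1 had -0.19 (adjusted p = 0.0971) and 0.15 (adjusted p = 0.178), and the calcium channel Mcoln1, whose promoter stretch is printed above, 0.059 (adjusted p = 0.647) and 0.015 (adjusted p = 0.912).

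Called subunits of the proton pump moved in both directions, and all 3 genes whose products act with the pump fell with AOA. Of the 9 V-ATPase subunits, 3 were higher and 2 lower with AOA (33.3% and 22.2%, against 22.4% and 23.3% of all genes). With aspartate 1 was higher and 4 lower (11.1% and 44.4%, against 23.5% and 22.8%). With library totals the counts were none and 2, and 1 and 2. Tcirg1 (ENSMUSG00000001750), the a3 subunit, was at 39.6, 42 and 40.5 CPM in Mock, 26.5, 28.3 and 29.1 CPM with AOA and 33.3, 39.1 and 37.6 CPM with AOA+Asp. It was the subunit with the largest called changes, a fall with AOA (log2 fold change -0.54, standard error 0.111, adjusted p = 0.00058) and a rise with aspartate (log2 fold change 0.39, standard error 0.111, adjusted p = 0.00742). Atp6v0d1 had 0.21 with AOA and -0.28 with aspartate, and Atp6v1h had 0.18 and -0.092 (adjusted p = 0.23). Both calls with AOA ended with library totals, with no filter on low counts and without any 1 of several libraries (down to 0.191 without AOA replicate 2 for Atp6v0d1, adjusted p = 0.121, and to 0.148 without AOA replicate 3 for Atp6v1h, adjusted p = 0.0945), and that of Atp6v0d1 with aspartate ended without AOA+Asp replicate 1 (-0.215, adjusted p = 0.0606). Ncoa7 (ENSMUSG00000039697), whose product binds the pump, was at 9.44, 7.3 and 7.97 CPM in Mock, 3.26, 4.12 and 3.78 CPM with AOA and 9, 7.63 and 9.1 CPM with AOA+Asp. The 3 AOA libraries were below the other 6, and both changes were the largest called in the pathway (log2 fold change -1.14, standard error 0.148, adjusted p = 5.17e-06 with AOA and log2 fold change 1.20, standard error 0.148, adjusted p = 3.36e-06 with aspartate). Wdr7 and Dmxl1, which form the rabconnectin complex that assembles the pump, had -0.81 and -0.38 with AOA and 0.74 and 0.78 with aspartate. The call of Dmxl1 with AOA ended after the GC and length correction (-0.0805) and without any library but AOA replicate 3 (-0.39 to -0.311), and the correction took its value with aspartate to 0.31, still called.

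Of 5 genes of the mannose 6-phosphate system, 2 were higher and 1 lower with AOA (40% and 20%, against 22.4% and 23.3% of all genes, and none and 2 with library totals). Gnptab, the enzyme that starts the tag, had -0.43 with AOA, a call that ended without AOA replicate 2 or 3 or Mock replicate 1 (-0.391, -0.369 and -0.383), and 0.29 (adjusted p = 0.0805) with aspartate. The receptor M6pr had 0.22 with AOA, not called with library totals, and -0.13 (adjusted p = 0.0776) with aspartate. The large receptor Igf2r had -0.20 (adjusted p = 0.119) and 0.055 (adjusted p = 0.692). Of 24 genes of clathrin, adaptor complexes and GGA proteins, 5 were higher and 6 lower with AOA (20.8% and 25%, near the shares of all genes, and 3 and 9 with library totals), with Ap1m1 (ENSMUSG00000003033), a subunit of the AP-1 adaptor, at 76, 78.3 and 76.1 CPM in Mock, 108, 112 and 108 CPM with AOA and 68.2, 81.4 and 73.7 CPM with AOA+Asp. Its AOA libraries were the highest of the 9, with a rise (log2 fold change 0.51, standard error 0.0828, adjusted p = 6.25e-05) and a fall with aspartate (log2 fold change -0.56, standard error 0.0829, adjusted p = 2.84e-05). The clathrin light chain Cltb rose by 0.44 with AOA and fell by 0.44, and values for Clta and Ap1s1 were 0.16 (adjusted p = 0.277) and 0.20 (adjusted p = 0.124) with AOA and -0.15 (adjusted p = 0.277) and -0.25 (adjusted p = 0.0529) with aspartate. Dnase2a (ENSMUSG00000003812), the acid nuclease that digests DNA in lysosomes, had 22.3, 20.5 and 21.9 CPM in Mock and 14.8, 15.2 and 16 CPM with AOA and fell (log2 fold change -0.49, standard error 0.123, adjusted p = 0.00319). Its value with aspartate was 0.36, which was not called without AOA replicate 1 (0.331), AOA replicate 2 (0.351) or AOA+Asp replicate 3 (0.262).

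**Figure D2:**
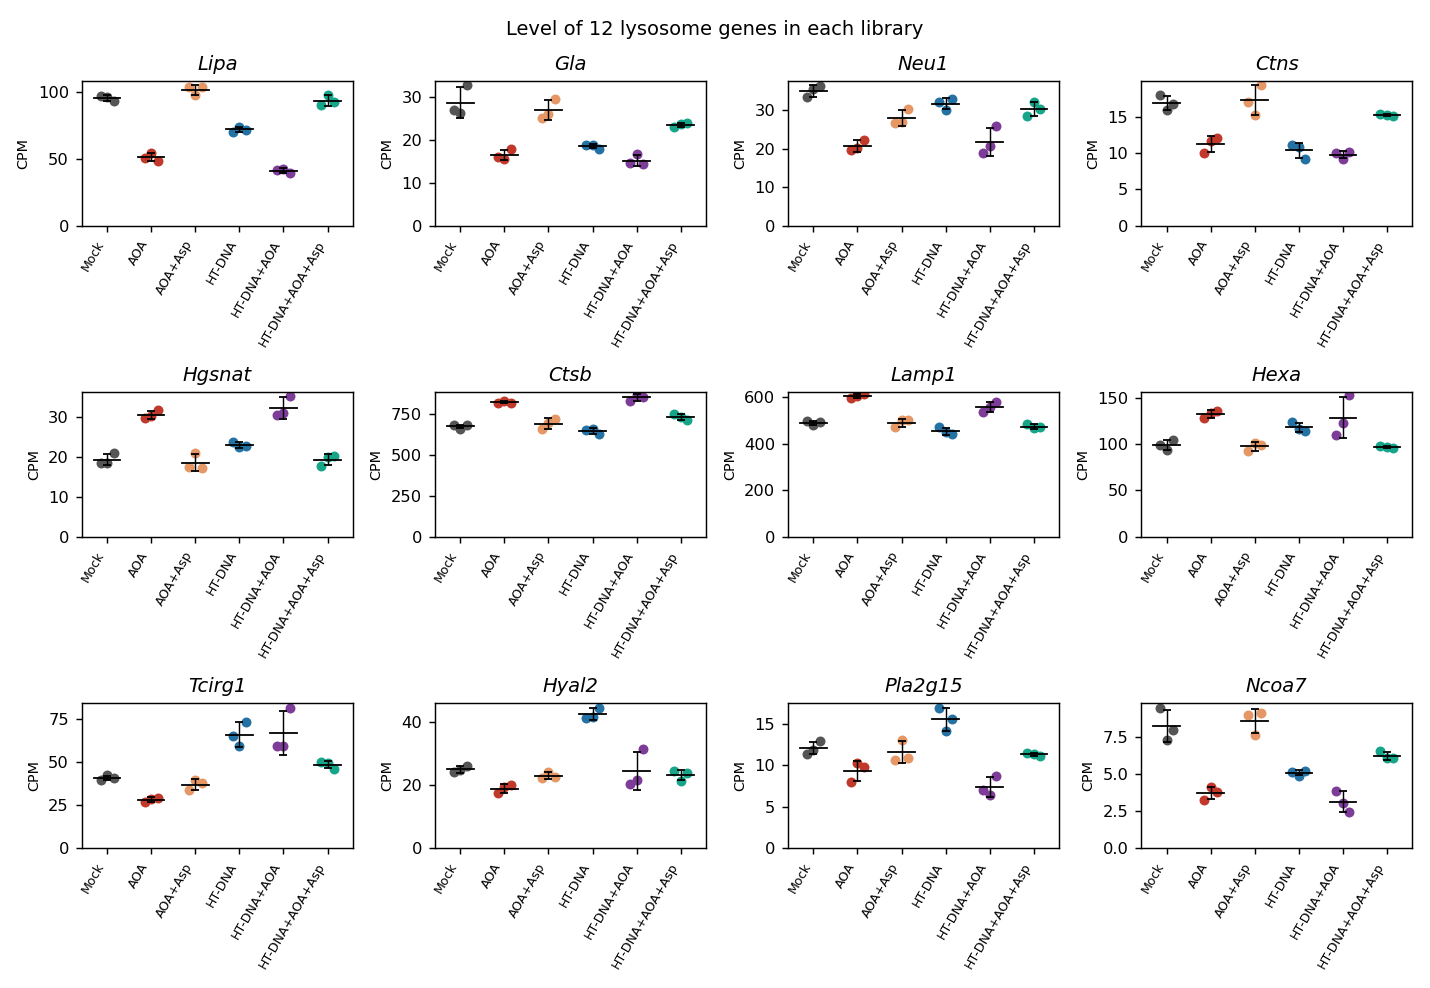
Level in counts per 1000000 (CPM, linear axes from 0) of 12 lysosome genes in each of the 18 libraries, with points for single libraries, a horizontal bar for the mean and error bars for the SD of 3. Lipa, Gla, Neu1, Ctns and Ncoa7 are lower in every AOA library than in every Mock library, Hgsnat, Ctsb, Lamp1 and Hexa are higher, and Hyal2 and Tcirg1 are highest in HT-DNA or HT-DNA+AOA libraries.

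The 7 genes that were lower in AOA+Asp than in Mock were the sulfatase Arsa (-0.36), Entpd4 (-0.36), Entpd4b (-0.31), Litaf (-0.34), the pump subunit Atp6v0a1 (-0.34), and, outside the genes that the naming rule takes, Ap3d1 (-0.23) and Slc11a2 (-0.23). Arsa was at 63.1, 64.3 and 72.6 CPM in Mock and 48, 55.2 and 52.7 CPM with AOA+Asp, and its call ended without AOA+Asp replicate 1 (-0.305) or Mock replicate 3 (-0.293). Atp6v0a1, at 129, 136 and 125 CPM in Mock and 99.4, 101 and 108 CPM with AOA+Asp, kept its call in every alternative run (log2 fold change -0.34, standard error 0.0575, adjusted p = 0.00116). Entpd4 and Entpd4b, nucleotide hydrolases, have no 31-base word of their own, so that their counts are uncertain, and neither call held after the GC and length correction, without any 1 of the 6 libraries for Entpd4 (-0.391 to -0.311) or without any library but AOA+Asp replicate 2 for Entpd4b (-0.32 to -0.275). The Litaf call ended without AOA+Asp replicate 1 (-0.304), that of Ap3d1 after the GC and length correction and without any 1 of the 6 libraries (-0.261 to -0.198), and that of Slc11a2 without any library but AOA+Asp replicate 2 (-0.266 to -0.202). None of the 27 genes that the rule names in every comparison was called here. The count itself was 14 in a fit restricted to these 6 libraries and 1 without AOA+Asp replicate 1.

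HT-DNA moved lysosome genes in both directions, in shares near those of all genes. Between HT-DNA and Mock, 23 of the 115 genes were higher and 32 lower (20% and 27.8%, against 24.2% and 24% of all genes). In total 47.8% were called, against 48.2% of all genes, with medians of -0.047 over the 115 and -0.0076 over all genes. None was called with a change of 1 log2 unit or more, compared with 4.37% of all genes. Tpp1 (ENSMUSG00000030894) was at 99.4, 98 and 97.8 CPM in Mock and 68.6, 77.7 and 67.2 CPM with HT-DNA and fell (log2 fold change -0.47, standard error 0.0796, adjusted p = 0.000165). Igf2r (ENSMUSG00000023830) had 360.4, 347 and 322 CPM in Mock and 210.3, 254 and 197 CPM with HT-DNA, a fall of 0.64 on the log2 scale (adjusted p = 0.000116). Ctns (ENSMUSG00000005949), with 11.1, 10.8 and 9.17 CPM in the HT-DNA libraries, showed the largest fall (log2 fold change -0.71, standard error 0.104, adjusted p = 4.51e-05). The beta-mannosidase Manba (-0.70), Ncoa7 (-0.70) and the acid phosphatase Acp2 (-0.63) followed, and Mcoln1 (-0.57), Npc1 (-0.49), Dnase2a (-0.49) and Scarb2 (-0.47) also fell. Lamp2 (-0.37) and Lipa (-0.41) were called lower but not after the GC and length correction, under which Lipa was at -0.107, and the call of Ctsl (-0.19) ended without Mock replicate 3 (-0.148). Lipa had 70, 73.8 and 71.7 CPM in the HT-DNA libraries, all below those of Mock.

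The rises with HT-DNA included a hyaluronidase, the pump subunit Tcirg1 and clathrin light chains. Hyal2 (ENSMUSG00000010047), a hyaluronidase that is anchored to membranes, was at 24.2, 24.6 and 26.2 CPM in Mock and 41.5, 41.6 and 44.7 CPM with HT-DNA, the largest rise by the naming rule (log2 fold change 0.77, standard error 0.116, adjusted p = 5.74e-05). Tcirg1 had 64.8, 59 and 73.1 CPM with HT-DNA, above all Mock libraries (log2 fold change 0.69, standard error 0.107, adjusted p = 7.46e-05). Of the 9 pump subunits, 4 were higher and 1 lower (44.4% and 11.1%, against 24.2% and 24% of all genes). The counts were 2 and 2 with library totals and also after the GC and length correction. That correction took Atp6v0b from 0.40 to 0.15 and Atp6v0c from 0.38 to 0.073, neither called, and Tcirg1 to 0.39, still called. Slc11a2 (0.63), the clathrin light chains Cltb (0.60) and Clta (0.44) and the AP-1 subunit Ap1s1 (0.48) rose as well. Hexa (0.25), Cd63 (0.36), Npc2 (0.25), M6pr (0.21) and Atp6v1h (0.15) were called higher, but each call except that of Cd63 ended with library totals, that of Cd63 ended without HT-DNA replicate 3 (0.302), and that of Hexa also ended after the GC and length correction. Without 1 library, Hexa fell to 0.209 (Mock replicate 2) and lost its call without HT-DNA replicate 1 or Mock replicate 1 too (0.215 and 0.253), Npc2 ran from 0.227 to 0.243 without HT-DNA replicate 1 or 3 or Mock replicate 1 or 2, and Atp6v1h lost its call whichever of the 6 libraries was left out (0.139 to 0.175). Values for other genes named in every comparison were -0.11 (adjusted p = 0.102) for Lamp1, -0.061 (adjusted p = 0.376) for Ctsb, 0.087 (adjusted p = 0.421) for Ctsd, 0.16 (adjusted p = 0.0572) for Gaa, -0.15 (adjusted p = 0.22) for Neu1, -0.064 (adjusted p = 0.452) for Psap, 0.045 (adjusted p = 0.673) for Atp6v0d1 and -0.32 (adjusted p = 0.0582) for Gnptab. With library totals the split was 13 higher and 50 lower, and after the GC and length correction it was 18 higher and 40 lower. The shares of all genes under these settings are not given here, so both splits lack a background to be read against.

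With HT-DNA present, AOA moved lysosome genes in both directions, with a share of rises near that of all genes and a smaller share of falls. Between HT-DNA+AOA and HT-DNA, 28 of the 115 genes were higher and 17 lower (24.3% and 14.8%, against 22.8% and 22.7% of all genes). In total 39.1% were called, against 45.4% of all genes, with a median of 0.069 over the 115 and 0.024 over all genes. With library totals the split was 25 higher and 21 lower. The counts were 50 without replicate 1 of HT-DNA+AOA, 39 without replicate 2 and 49 without replicate 3. Of the 11 proteases 4 were higher (36.4%) and none lower, against 22.8% and 22.7% of all genes. Of the 13 genes of membrane glycoproteins and membrane-associated proteins 6 were higher (46.2%) and none lower. With library totals, 4 proteases were higher and 1 lower, and 4 genes of the membrane group were higher and none lower. Without 1 library of HT-DNA+AOA, 4 or 5 proteases were higher (1 being lower without replicate 3). In the membrane group 4 to 7 genes were then higher and none lower, the 4 without replicate 2. Ctsb had 648, 659 and 627 CPM with HT-DNA and 826, 865 and 854 CPM with HT-DNA+AOA and rose (log2 fold change 0.40, standard error 0.0547, adjusted p = 8.12e-06). Lamp1 was at 472, 449.8 and 440.5 CPM and 537, 560.3 and 581 CPM, also without overlap (log2 fold change 0.30, standard error 0.0554, adjusted p = 0.000186). Ctsl (0.40), Tpp1 (0.43), Cd164 (0.54), Idua (0.85), Hgsnat (0.49), Ppt1 (0.45) and Mcoln1 (0.36) rose as well. Atp6v1h (0.30, not called after the GC and length correction), Atp6v0d1 (0.24), Npc1 (0.27) and Scarb2 (0.22) were also called higher. The last 3 lost their calls in a fit of these 2 groups alone, and when HT-DNA replicate 3 was left out (0.213, 0.228 and 0.181). They also did so without 1 library of HT-DNA+AOA, Atp6v0d1 without replicate 2 or 3 (0.218 and 0.156), Npc1 without replicate 1 (0.129) and Scarb2 without replicate 1 or 2 (0.173 and 0.206).

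The lowest values with AOA in HT-DNA–stimulated cells were those of lipid enzymes and Hyal2. Pla2g15 (ENSMUSG00000031903), a phospholipase A2 of the lysosome, was at 16.9, 14.1 and 15.7 CPM with HT-DNA and 7.05, 6.42 and 8.77 CPM with HT-DNA+AOA. No HT-DNA+AOA library reached any HT-DNA library, and this was the 1 lysosome gene called with a change of 1 log2 unit or more (log2 fold change -1.08, standard error 0.125, adjusted p = 1.05e-06), compared with 10.2% of all genes. Without replicate 2 of HT-DNA+AOA its value was -0.981. Lipa was at 70, 73.8 and 71.7 CPM and 41.8, 42.2 and 39.3 CPM and fell (log2 fold change -0.80, standard error 0.0635, adjusted p = 7.52e-09). Hyal2, at 41.5, 41.6 and 44.7 CPM with HT-DNA, had 20.2, 21.8 and 31.4 CPM with HT-DNA+AOA, with replicate 3 above the other two, and fell (log2 fold change -0.81, standard error 0.117, adjusted p = 1.54e-05). Without replicates 1, 2 and 3 of HT-DNA+AOA in turn, the value was -0.689, -0.729 and -1.02. Ncoa7 (-0.70), Wdr7 (-0.55) and Neu1 (-0.54) fell too. Ctns, at 11.1, 10.8 and 9.17 CPM with HT-DNA, was at 9.98, 9.19 and 10.1 CPM with HT-DNA+AOA, the groups overlapping, with a value of -0.087 (adjusted p = 0.546). Other genes named in every comparison were not called, with values of 0.14 for Lamp2, -0.17 for Ctsd, 0.12 for Hexa, 0.069 for Gaa, 0.13 for Psap, 0.12 for Npc2, 0.032 for Cd63, -0.047 for Dnase2a, 0.017 for Tcirg1, 0.12 for M6pr, 0.21 for Igf2r, -0.29 for Gnptab, -0.22 for Ap1s1 and -0.15 for Clta.

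**Figure D3:**
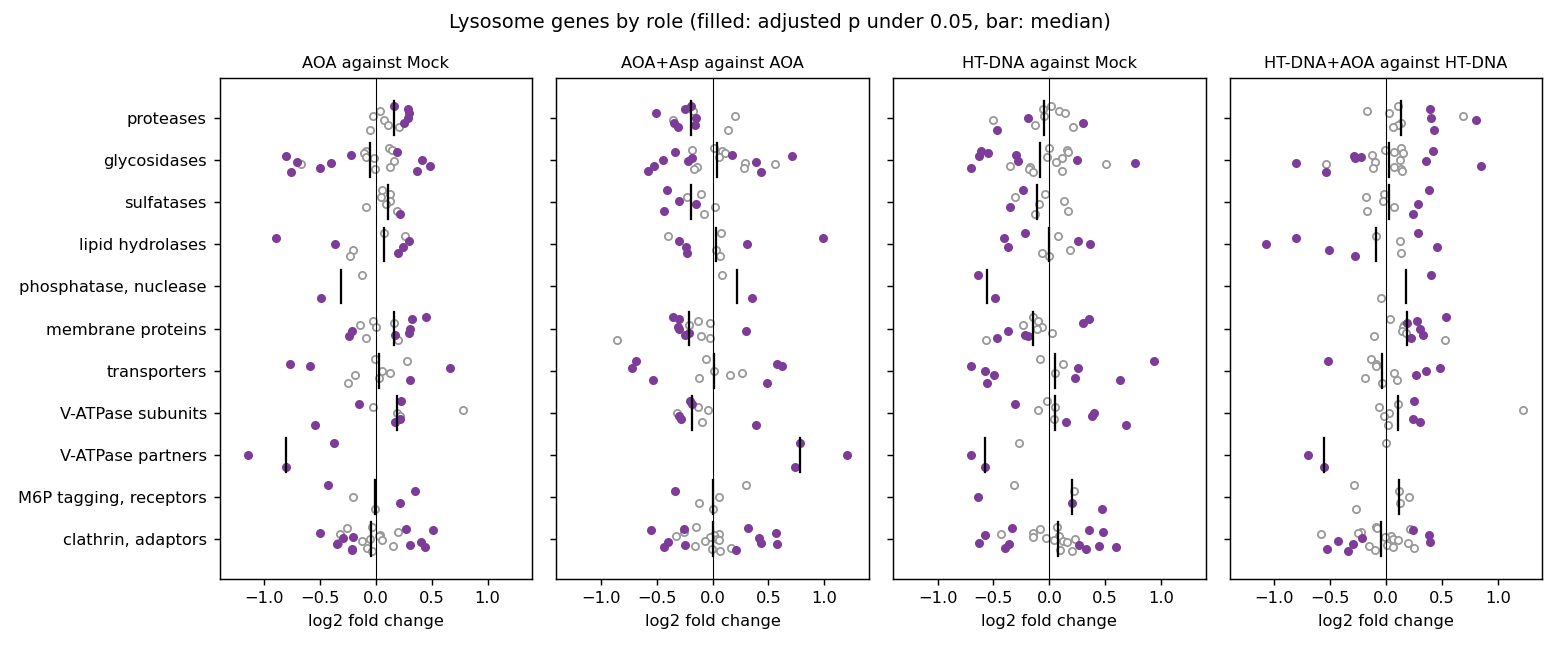
Log2 fold change of each of the 115 lysosome genes in 4 comparisons, by role, with filled points for genes with an adjusted p under 0.05, open points for the others and a black bar for the median of the role. Called proteases lie to the right of 0 with AOA and to the left once aspartate is added (1 lies to the right there with library totals), and the V-ATPase partners Ncoa7 and Wdr7 do the opposite, with Dmxl1 near 0 for AOA in the presence of HT-DNA.

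Of the 30 genes called higher between AOA and Mock, 14 were also higher between HT-DNA+AOA and HT-DNA (46.7% of the first list and 50% of the second), and of the 25 called lower 10 were also lower (40% and 58.8%). These 2 comparisons have no library in common. The same overlap was not counted over all genes tested, so these shares have no background to be read against. Without replicates 1, 2 and 3 of HT-DNA+AOA in turn, 20 of 32, 14 of 29 and 12 of 32 were higher in both, and 13 of 31, 9 of 25 and 10 of 30 lower in both. With library totals it was 7 of 11 and 16 of 38, and after the GC and length correction 22 of 32 and 13 of 24. The difference between the 2 AOA effects (the effect with HT-DNA minus the effect without it) was called for 16 of the 115 genes, 13 higher and 3 lower (13.9%, against 15.5% of all genes, 7.23% higher and 8.26% lower). Cln3 (ENSMUSG00000030720) gave the largest called difference above 0, with 15.2, 13.7 and 15.9 CPM in HT-DNA and 13.6, 13.8 and 14.8 CPM in HT-DNA+AOA libraries, which overlap, whereas AOA alone had lowered it. Its AOA effect was -0.77 without and -0.088 with HT-DNA, and the difference was 0.68 (standard error 0.14, adjusted p = 0.00463). Tcirg1, which AOA alone had lowered, had 59.3, 59.1 and 81.1 CPM with HT-DNA+AOA, its replicate 3 above the other two, and differed in its AOA effect by 0.56 (adjusted p = 0.0212), a call lost when only the 4 groups involved were fitted and without Mock replicate 2 (0.535, adjusted p = 0.0508). The hyaluronidase Hyal1 (0.60) and Tpp1 (0.49) differed in the same direction, other genes holding 50.7% of the 31-base words of Hyal1. Pla2g15 differed the other way, by -0.71 (standard error 0.175, adjusted p = 0.0128). The count depended on single libraries: it was 46 (22 higher and 24 lower) without replicate 3 of HT-DNA+AOA, 13 without its replicate 1, 10 without its replicate 2, and 7 without replicate 3 of HT-DNA. It was 6 when only the 4 groups were fitted and 19 higher with 1 lower with library totals.

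**Figure D4:**
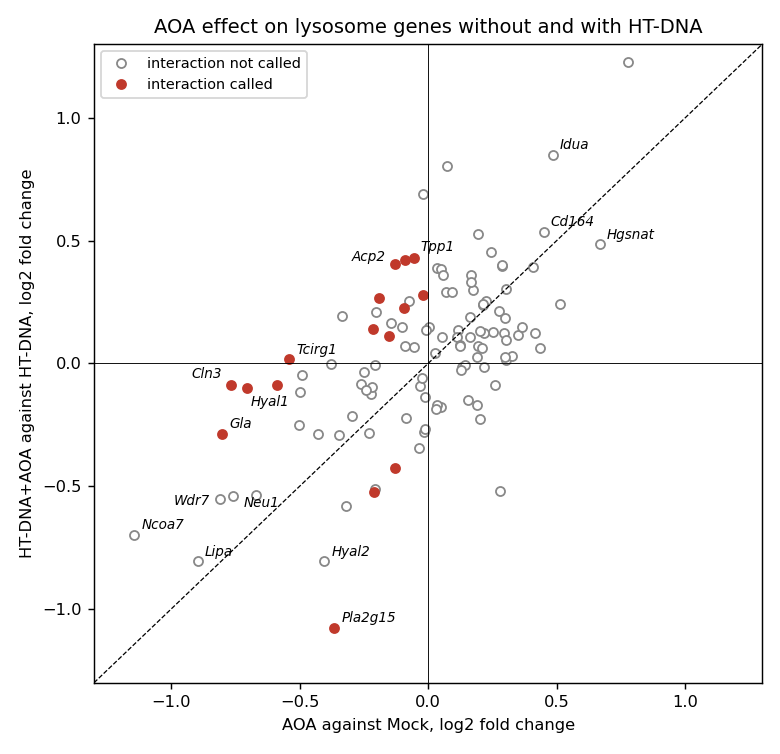
Log2 fold change with AOA in cells without HT-DNA (x axis) and with HT-DNA (y axis) for the 115 lysosome genes, with the line of equal effects dashed and the 16 genes whose AOA effect differed (adjusted p under 0.05) in red. Lipa, Ncoa7, Wdr7 and Neu1 lie low on both axes and Hgsnat, Cd164 and Idua high on both, while Cln3, Hyal1 and Tcirg1 lie left of 0 and near 0 on the y axis and Pla2g15 lies lowest.

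On the TMM scale, aspartate in the presence of HT-DNA and AOA lowered more lysosome genes than it raised, and with library totals it raised more. Between HT-DNA+AOA+Asp and HT-DNA+AOA, 21 were higher and 35 lower (48.7%, against 47.7% of all genes, 23.7% higher and 23.9% lower), with medians of -0.09 over the 115 and -0.012 over all genes. The count was 68 without replicate 1 of HT-DNA+AOA, 47 without replicate 2 and 44 (17 higher and 27 lower) without replicate 3, and with library totals the split was 27 higher and 21 lower. Of the 21 genes that aspartate raised in AOA cells, 16 were among the 21 that it raised here (76.2% of each list), and of the 39 and 35 that fell, 27 fell in both (69.2% and 77.1%), again in comparisons without common libraries. Here too the overlap over all genes tested was not counted. Without replicates 1, 2 and 3 of HT-DNA+AOA in turn, 19 of 24, 15 of 20 and 15 of 24 rose in both, and 33 of 43, 23 of 37 and 22 of 44 fell in both. Lipa was at 89.6, 97.7 and 92.4 CPM in HT-DNA+AOA+Asp libraries, all above those of HT-DNA+AOA, and gave the largest rise (log2 fold change 1.18, standard error 0.0635, adjusted p = 7.47e-11). Ncoa7 (0.99), Wdr7 (0.96), Gla (0.63) and Neu1 (0.48) rose as in AOA cells. Ctns, at 15.3, 15.2 and 15.1 CPM, rose as well (log2 fold change 0.64, standard error 0.106, adjusted p = 8.21e-05). The largest falls by the naming rule were those of Hgsnat, at 30.5, 31.2 and 35.4 CPM with HT-DNA+AOA and 17.7, 20 and 20.3 CPM with HT-DNA+AOA+Asp (log2 fold change -0.74, standard error 0.0912, adjusted p = 2.9e-06), Ap1m1 (-0.60), Slc11a2 (-0.56), Napsa (-0.48) and Tcirg1 (-0.46). All 6 called pump subunits were lower (66.7% of the 9, against 23.9% of all genes), among them Atp6v0d1 (-0.36). Of the 11 proteases none was higher and 5 were lower (45.5%). Without 1 library of HT-DNA+AOA, 5 or 6 subunits and 4 to 6 proteases were lower and none was higher. Hexa (-0.41) and Gaa (-0.35) fell. The calls of Lamp1 (-0.24) and Ctsb (-0.22) ended when only both groups were fitted, and those of Cd63 (-0.32) and Npc2 (-0.28) ended without replicate 3 of HT-DNA+AOA (-0.172 and -0.15) and without 1 library of HT-DNA+AOA+Asp (-0.3 for Cd63 without replicate 1 and -0.256 for Npc2 without replicate 3). Calls for Atp6v1h (-0.18), M6pr (-0.16), Lamp2 (0.19), Npc1 (0.25), Igf2r (0.27) and Gnptab (0.43) each ended when only both groups were fitted, and all but that of Atp6v1h ended without replicate 3 of HT-DNA+AOA, where they were at -0.131, 0.135, 0.161, 0.165 and 0.277.

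With AOA and aspartate both added, lysosome genes differed from HT-DNA alone in both directions. Between HT-DNA+AOA+Asp and HT-DNA, 31 were higher and 30 lower (53.0%, against 46.6% of all genes, 23.2% higher and 23.5% lower). This comparison was the one most affected by the GC and length correction, after which 25 were higher and 14 lower. Of the 31 that were higher, 16 kept the call, and of the 30 that were lower, 10 did. The genes that were lower had a median GC content of 55.5% and a median transcript length of 1024 bases, and those that were higher 48.2% and 1314 bases, as among all genes, where the medians were 55.2% and 1020 bases for lower and 46.2% and 1913 bases for higher genes. Genes whose call held after the correction included Ctns (0.55), Npc1 (0.52), Mcoln1 (0.51), Igf2r (0.48), Tpp1 (0.41), Ap3b1 (0.57) and Ctsl (0.27) among the higher and Hyal2 (-0.88), Pla2g15 (-0.46), Slc11a2 (-0.46) and Ap1s1 (-0.45) among the lower. Of these, Ctns, Igf2r, Slc11a2 and Ap1s1 had not been called between HT-DNA+AOA and HT-DNA (-0.087, 0.21, 0.096 and -0.225), and the others had. Hyal2 was at 24.4, 21.4 and 24 CPM in HT-DNA+AOA+Asp libraries, all below those of HT-DNA (log2 fold change -0.88, standard error 0.117, adjusted p = 2.84e-05). The calls of Lipa (0.38), Dmxl1 (0.58), Ap4e1 (0.57), Scarb2 (0.25), Tcirg1 (-0.44), Gga1 (-0.53), Clta (-0.40), Hexa (-0.29), Cd63 (-0.29) and Ctsd (-0.26) ended with the correction, which turned Gaa from -0.28 to 0.12 and Lamp2 from 0.33 to -0.0403. Leaving out 1 library also ended the calls of Hexa (-0.251 without HT-DNA replicate 1), Scarb2 (0.212 without HT-DNA replicate 3), Ctsd (-0.253 to -0.24 without HT-DNA replicate 1 or 3 or HT-DNA+AOA+Asp replicate 2 or 3) and Cd63 (-0.315 to -0.238 without any library but HT-DNA replicate 2). The part of GC content and length in these differences was not tested further.

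**Figure D5:**
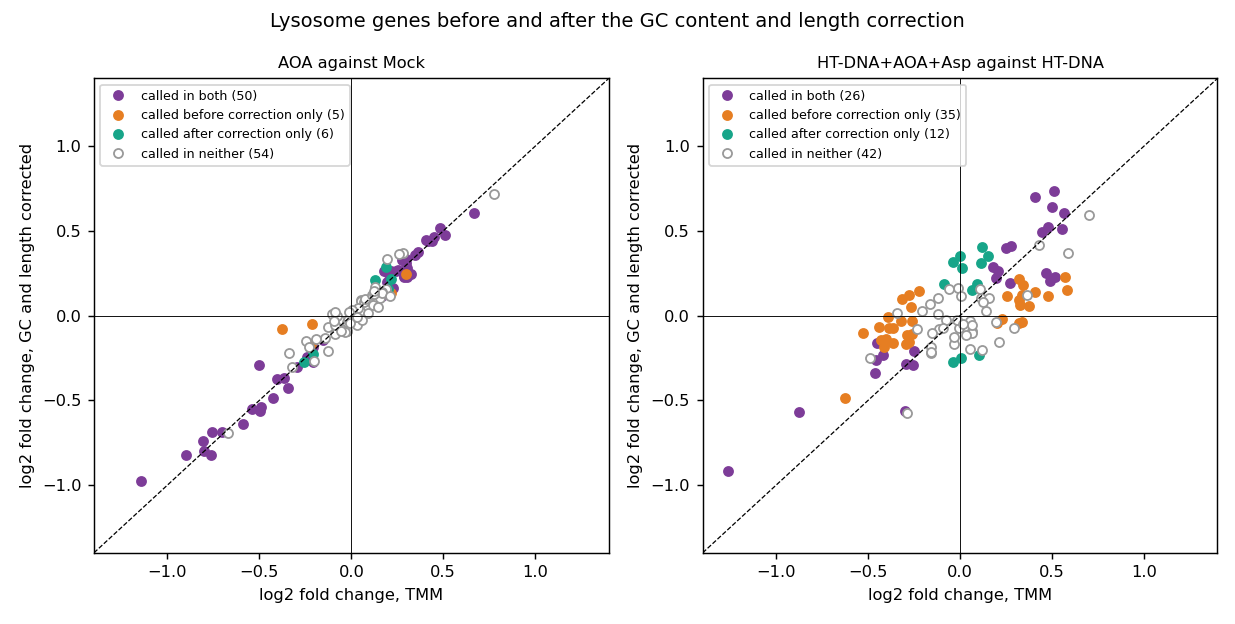
Log2 fold change of the 115 lysosome genes on the TMM scale (x axis) and once corrected for GC content and transcript length (y axis), for AOA against Mock (left) and HT-DNA+AOA+Asp against HT-DNA (right), coloured by whether the call was made before the correction, after it, in both or in neither. Points follow the dashed line of equality on the left, where 28 of 30 higher and 22 of 25 lower calls held, and scatter away from it on the right, where 16 of 31 and 10 of 30 did.

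Genes outside the KEGG list were read from 3 lists: MiT/TFE factors and their control at the lysosome, autophagy genes, and further subunits of the pump. These lists were chosen with earlier results of these data known. Their shares beside those of all genes are therefore descriptions, and an excess was not tested. Of 19 genes of the MiT/TFE factors and their control at the lysosome, 2 were higher and 9 lower with AOA (57.9% called, against 45.7% of all genes), 7 were higher and 3 lower with aspartate added (52.6%, against 46.3%), and HT-DNA gave 6 higher and 8 lower (73.7%, against 48.2%). With library totals these counts were 1 and 12, 8 and 1, and 3 and 8. Tfeb (ENSMUSG00000023990) was at 9.65, 12.3 and 10.9 CPM in Mock, 5.07, 6.87 and 5.81 CPM with AOA and 8.82, 9.1 and 8.51 CPM with AOA+Asp. Its transcript fell with AOA (log2 fold change -0.88, standard error 0.149, adjusted p = 9.86e-05) and rose with aspartate (log2 fold change 0.57, standard error 0.151, adjusted p = 0.00506), and it fell with AOA in HT-DNA–stimulated cells (log2 fold change -1.13, standard error 0.146, adjusted p = 3.96e-06), where its value with aspartate was 0.18 (adjusted p = 0.336). With HT-DNA it had 0.45, a call that ended after the GC and length correction (0.0158) and without HT-DNA replicate 3 (0.362) or Mock replicate 1 (0.365). The related Mitf fell by 0.72 with AOA and by 1.18 with HT-DNA and rose by 0.91 and 1.47 with aspartate, while Tfe3 had -0.028 (adjusted p = 0.771) with AOA and 0.012 (adjusted p = 0.898) with HT-DNA. Fnip1, a partner of folliculin, fell by 0.63 with AOA and rose by 1.00 with aspartate, and had -0.18 (adjusted p = 0.284) with AOA in HT-DNA–stimulated cells. Folliculin itself, Flcn, had 0.21 with AOA, a call that ended with library totals (0.0811) and without AOA replicate 2 (0.181) or Mock replicate 2 (0.171), 0.073 (adjusted p = 0.403) with aspartate and 0.30 with HT-DNA. In HT-DNA–stimulated cells it had -0.40 with AOA and 0.39 with aspartate. Of 30 autophagy genes, 10 were higher and 14 lower with AOA (80% called, against 45.7% of all genes) and 12 higher and 8 lower with aspartate (66.7%, against 46.3%). With library totals these counts were 6 and 15, and 14 and 4. Sqstm1 (ENSMUSG00000015837), the cargo receptor p62, was at 829, 774 and 830.0 CPM in Mock, 1357, 1343 and 1315 CPM with AOA and 835, 921 and 891 CPM with AOA+Asp. It rose with AOA (log2 fold change 0.72, standard error 0.0676, adjusted p = 1.05e-07), fell with aspartate (log2 fold change -0.60, standard error 0.0675, adjusted p = 1.17e-06), and did so in HT-DNA–stimulated cells too (0.74 and -0.70). Gabarapl1 fell by 0.29 and rose by 0.54, and Map1lc3b had 0.19 (adjusted p = 0.0722) with aspartate. Of 11 subunits of the V1 sector and accessory proteins of the pump that are not in the KEGG list, 1 was higher and 2 lower with AOA (27.3% called, against 45.7% of all genes, and none and 2 with library totals). With aspartate added to AOA 2 were higher and 2 lower, and with HT-DNA 2 were higher and 4 lower. Between HT-DNA+AOA and HT-DNA 4 were higher and none lower (36.4% called, against 45.4% of all genes). The difference between the AOA effects with and without HT-DNA was called higher for 5 and lower for none (45.5%, against 15.5% of all genes). After the GC and length correction it was called higher for 2. Atp6v1a, the catalytic subunit, fell by 0.53 with AOA and by 0.61 with HT-DNA and rose by 0.57 with aspartate. Atp6v1b2 rose by 0.34 with aspartate.

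Of the 10 genes with TCACGTGA in the promoter window, 5 were higher with AOA (Atp6v0d1, Cd164, Ctsa, Gnptg and Sumf1), 2 were lower (Cln3 and Gla) and 3 were not called (Ctsd, Igf2r and Mcoln1). Among the 80 genes with a window that lacked these letters, 17 were higher and 20 lower. With aspartate added to AOA, 2 of the 10 were higher and 4 lower, compared with 16 and 25 of the 80, and with HT-DNA none of the 10 was higher and 3 were lower, compared with 17 and 23. Between HT-DNA+AOA and HT-DNA, 4 of the 10 were higher and 1 lower, compared with 14 and 15 of the 80. Aspartate added to HT-DNA+AOA gave 2 higher and 2 lower, compared with 15 and 20. Between HT-DNA+AOA+Asp and HT-DNA, 5 were higher and 1 lower, compared with 20 and 23. Genes with the printed element stood on both sides of 0 in the AOA comparisons. With library totals, 1 of the 10 was higher and 3 lower with AOA, compared with 6 and 30 of the 80, and of the 5 named as higher, Atp6v0d1, Ctsa, Gnptg and Sumf1 were not called. These counts are descriptions of small groups and were not tested.

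The 20 lysosome rows that did not meet the rule had at most 13 counts in any library. Closest to the rule from below were Ctsw, with at most 11 counts and 10 or more in 2 libraries, and Hyal6, with 13 counts in its highest library and 10 or more in 1, and among the lowest that met it was the pump subunit Atp6v0a4, at 0.0874 to 0.679 CPM. The 20 rows include the osteoclast phosphatase Acp5, the pump subunit Atp6v0d2 and the cathepsins Ctsc, Ctse, Ctsf, Ctsg, Ctss and Ctsw, and Laptm5 and Lamp3, which are known from blood cells and from dendritic cells. Atp6v0d2, Ctsg, Ctsj, Ctsm, Dnase2b, Psapl1 and Spam1 had no count in any library, where a count of 0 allows up to 3 counts, for counting error only.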

How the data were processed

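RNA extracted with TRIzol from 18 L929 cultures (6 groups of 3, taken from the labels) was sequenced by Majorbio. The authors deposited an expected count (estimated reads) per gene and library, not normalized. The aligner, counter, strandedness and build are not given in the sources used here, so overlapping genes cannot be told apart. The group means in the same table were not used. Expected counts, of which 11.6% were not whole, were rounded and analysed in R 4.3.3 with edgeR 4.0.16: filterByExpr (minimum count 10, minimum total 15), TMM, and 1 robust quasi-likelihood fit of all libraries by group, with Benjamini-Hochberg adjustment over all 14263 genes and calls at an adjusted p under 0.05. Standard errors are the absolute log2 fold change over the square root of F. P-values measure the spread between these cultures.

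The pathway, role groups and outside lists were chosen with earlier results of these data known. Genes were named by rule: per comparison the 5 largest rises and falls among called members whose higher group had 5 CPM or more and whose replicates do not overlap. A list of well-known lysosome genes in every comparison and genes of the lists outside the pathway were named as well. A few named members are not reported here. Genes given only as further called members of a role group were chosen after their values were seen. Alternatives were DESeq2 1.42.0, RLE normalization, library totals, other filters, the compared libraries only, a replicate block, each library left out, and a loess correction (span 0.3) for GC content and transcript length from GENCODE, also run with the block, a combination added after seeing the data. Sequences shared between genes were counted as 31-base words in the same transcripts, promoter windows came from RefSeq (GRCm38.p6), and the steps were tested on simulated counts.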

Additional observations from a re-analysis of the deposited data

Results flagged for a closer look

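For 16 lysosome genes the effect of AOA with HT-DNA differed from its effect without HT-DNA by the test of the difference itself. The difference, in log2 units, was above 0 for the transporter and membrane genes Cln3 (0.68), Ctns (0.50), Npc1 (0.46), Lamp2 (0.36), Scarb2 (0.32) and Cd68 (0.30). It was also above 0 for the glycosidases Hyal1 (0.60), Gla (0.52) and Fuca2 (0.51), for the phosphatase Acp2 (0.53), the protease Tpp1 (0.49) and the pump subunits Tcirg1 (0.56) and Atp6v0a1 (0.26). It was below 0 for Pla2g15 (-0.71), Gga1 (-0.31) and the adaptor subunit Ap3s2 (-0.30). The differences of Cln3, Fuca2, Hyal1, Pla2g15 and Tpp1 passed the threshold in every alternative run for them, each library left out included. Those of Lamp2, Npc1, Gla, Gga1 and Atp6v0a1 did not pass it once GC content and length were corrected for. Leaving out single libraries ended the calls of Ap3s2 (-0.327 to -0.248), Scarb2 (0.265 to 0.343), Cd68 (0.253 to 0.339), Atp6v0a1 (0.228 to 0.27), Gga1 (-0.334 to -0.263), Ctns (0.416 to 0.53), Npc1 (0.319 to 0.45) and Gla (0.409 to 0.49), those of Acp2 without HT-DNA replicate 3 (0.467) and Tcirg1 without Mock replicate 2 (0.535), and not that of Lamp2.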

How the results depend on the processing

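Counts of called lysosome genes changed by over 1.5 times in few alternatives. The 7 genes of AOA+Asp against Mock became 4 with the GC and length correction, alone or with the replicate block, 11 with library totals and 14 with only the libraries compared. Fitting only the libraries compared also gave 28 genes for HT-DNA+AOA against HT-DNA, 30 for HT-DNA+AOA+Asp against HT-DNA+AOA and 6 for the interaction of AOA with HT-DNA. The GC and length correction gave 39 for HT-DNA+AOA+Asp against HT-DNA. With 1 library left out the counts ran from 40 to 51 for AOA against Mock, 42 to 56 for AOA+Asp against AOA, 1 to 5 for AOA+Asp against Mock, 44 to 55 for HT-DNA against Mock, 36 to 50 for HT-DNA+AOA against HT-DNA, 44 to 68 for HT-DNA+AOA+Asp against HT-DNA+AOA, 41 to 56 for HT-DNA+AOA+Asp against HT-DNA and 7 to 46 for the interaction. Replicate numbers did not pair the samples (correlations of same-numbered libraries from -0.438 to 0.522), and with the number as a block the counts, in the same order, were 54, 61, 5, 55, 46, 58, 60 and 15.

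Of the called genes named, those that changed sign did so with the GC and length correction, alone and with the block: Gaa in HT-DNA+AOA+Asp against HT-DNA (0.12 in both), Gga1 in the interaction (0.00578 and 0.00442), Fnip1 in HT-DNA against Mock (0.0594 and 0.0586), and Lamp2 in AOA+Asp against AOA (-0.00693 and -0.00674), HT-DNA+AOA+Asp against HT-DNA (-0.0403 and -0.0402) and HT-DNA+AOA+Asp against HT-DNA+AOA (-0.0229 and -0.0205). The cause was not tested. Depth was not tested as a limit beyond the filter.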
